A study of Oryza sativa with 18 samples.

Results

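In rice leaves, 18 of 37863 genes were nearly silent in every library grown without added salt and present in every library from salt-treated plants. They were chosen from the read counts by 2 limits on CPM, a gene's count divided by the library total and multiplied by 1000000. A gene had to stay at or below 0.3 CPM in each of 9 control libraries and reach at least 1 CPM in each of 9 salt libraries. The limits pool 3 genotypes, so salt against control is what chose the genes, and their values for that contrast are given as description without a test. The groups were the FKBP57 knockout line, the FKBP73 knockout line and the wild-type cultivar Ningjing 4, each exposed to 150 mM NaCl for 4 hours or kept in normal nutrient solution, with 3 biological replicates in each of 6 groups. The labels name 1 knockout line for each gene and give neither its allele nor the age of the plants, and they give no sampling time for the controls. A difference in harvest time or handling therefore cannot be told apart from salt in these values.

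Salt around the roots lowers water uptake and later loads the leaf with sodium. Leaves answer with abscisic acid, the hormone of water deficit, which releases kinases that act on transcription factors, and with pathways that act apart from that hormone. Some stress genes are transcribed at a low level in unstressed leaves and rise by degrees, whereas others have almost no transcript until stress. Both knocked-out genes encode members of the FK506-binding family, proline isomerases that often work with chaperones. The series title links the pair to salt tolerance by way of SOS, the pathway that exports sodium.

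The counts are listed by RAP-DB identifier without gene names, and 0 of the 18 identifiers were found in the reference table. They are therefore called by identifier, and no function is given to them, apart from 1 that stands in a list of abscisic acid genes drawn up from prior knowledge. By the chromosome number written into RAP-DB identifiers, the 18 genes lay on 10 of 12 chromosomes, with 3 each on chromosomes 4 and 5, 2 each on chromosomes 1, 2, 3 and 8, and none on chromosomes 10 and 11. No pair of them was adjacent: the nearest pair on a chromosome was 107 rows apart in the table. Transcript lengths were not given, so CPM is compared between libraries and not between genes.

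Library totals ran from 27601098 to 39894394 counts. At these depths the upper limit of 0.3 CPM was 8.28 to 12 counts in a control library, and the lower limit of 1 CPM was 28.3 to 37.3 counts in a salt library. On the first principal component of log2 CPM, which held 44.4% of the variance, FKBP57 knockout salt 3 scored -18.3, while the other salt libraries scored 50.4 to 129. Wild-type control 3 scored 2.4 and FKBP57 knockout control 3 scored 15.5, while the other control libraries scored -129.3 to -60.2. The 6 leaf marker identifiers, among them those of photosynthesis, summed to 5361 to 16181 CPM in salt libraries and 7926 to 38256 CPM in control libraries, and 1 root marker identifier stayed between 0 and 0.128 CPM under salt and between 0 and 0.891 CPM under control. The 4 seed storage identifiers summed to 5.23 to 8.33 CPM under salt and 3.86 to 11.2 CPM under control, and 2 of them had no count. These markers were defined by identifier from prior knowledge, and their part in the results was not tested. In leaf RNA, fewer cells of a type and less RNA per cell cannot be told apart.

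Together the 18 genes summed to 98.3 ± 17.8 CPM in the FKBP57 knockout under salt, 152 ± 38.2 CPM in the FKBP73 knockout and 158 ± 66.9 CPM in wild type (SD, n = 3 each). In the controls they summed to 0.822 ± 0.298 CPM in the FKBP57 knockout, 1.42 ± 0.59 CPM in the FKBP73 knockout and 1.13 ± 0.314 CPM in wild type (SD, n = 3 each). The lowest salt library, FKBP57 knockout salt 3, held 83.5 CPM, and the highest control library, FKBP73 knockout control 3, held 2.09 CPM. Most of the genes had a few counts somewhere in the controls and 1 had none.

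**Figure D1:**
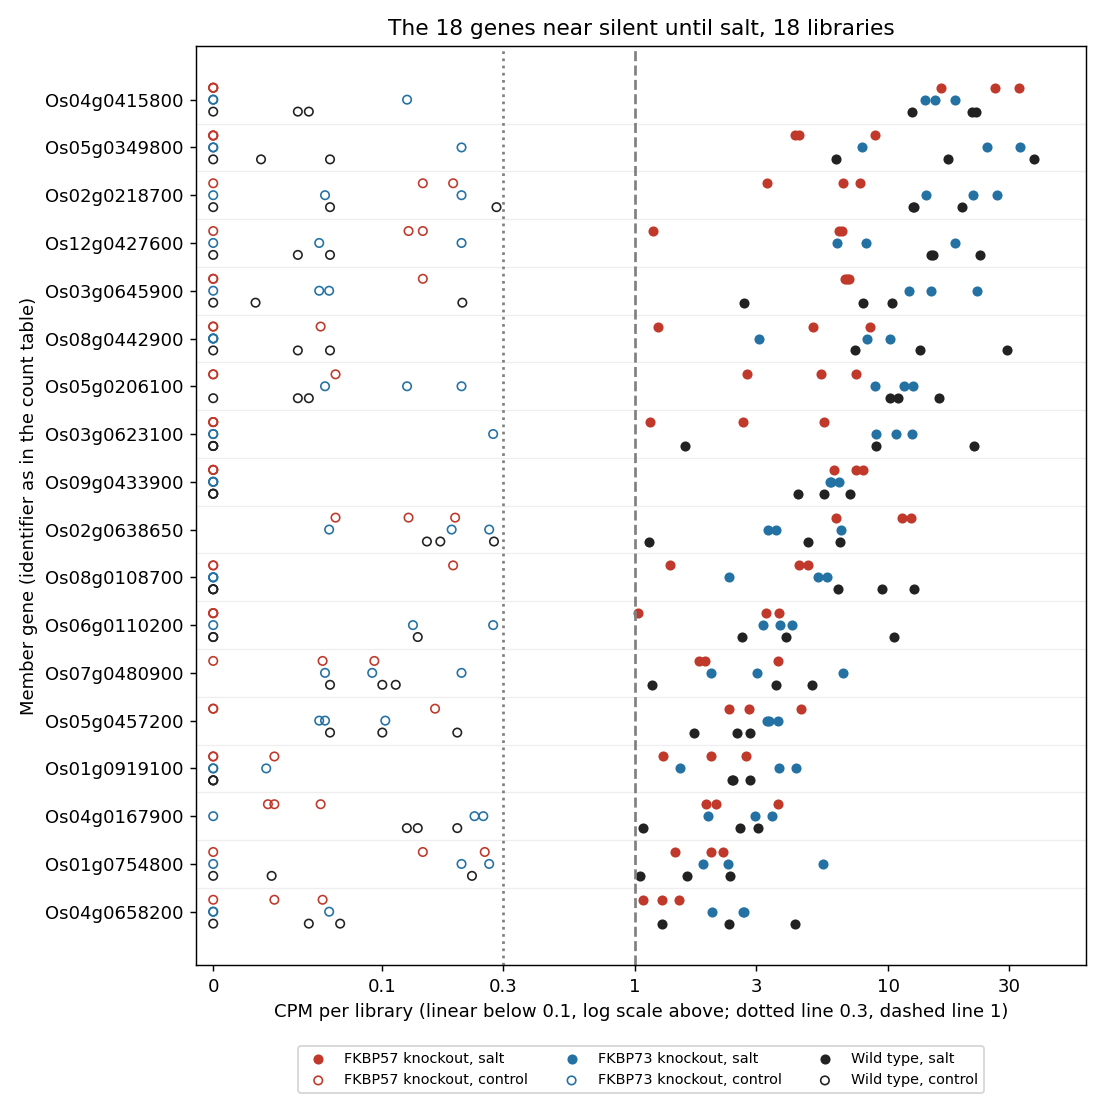
CPM of each of the 18 genes in each of the 18 libraries, on an axis that is linear below 0.1 and logarithmic above, with filled points for salt and open points for control. The empty band between the dotted line at 0.3 CPM and the dashed line at 1 CPM follows from the limits that chose the genes; the spread among filled points of one colour is the spread between replicates.

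Os04g0415800 had the highest mean salt CPM of the 18. It stood at 32.7, 16.2 and 26.3 CPM under salt in the FKBP57 knockout, 15.2, 18.3 and 13.9 CPM in the FKBP73 knockout and 21.5, 12.4 and 22.1 CPM in wild type. Its 9 control libraries held 8 counts in all, none of them in the FKBP57 knockout. Over all libraries the salt level was 712 times the control level (6032 against 8 counts). Within the FKBP57 knockout it was at least 759-fold higher under salt, against a floor of 3 counts over the 3 control libraries. Every salt library was far above every control library, and the genotypes overlapped under salt.

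Os05g0349800, the second by mean salt CPM, was less even. Under salt it had 8.84, 4.29 and 4.45 CPM in the FKBP57 knockout, 24.4, 33.1 and 7.88 CPM in the FKBP73 knockout and 17.2, 6.18 and 37.6 CPM in wild type. The highest and lowest wild-type salt libraries thus enclosed all but 2 of the other values, those of FKBP57 knockout salt 2 and 3. Its controls held 9 counts over 9 libraries, 6 of them in FKBP73 knockout control 3.

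Os09g0433900 was the one gene of the 18 with no count in any control library, and it was singled out after its values were seen. It had 7.94, 6.11 and 7.46 CPM under salt in the FKBP57 knockout, 6.37, 5.93 and 5.9 CPM in the FKBP73 knockout and 5.59, 4.39 and 7.02 CPM in wild type. With 1905 counts under salt and a floor of 3 counts over all 9 control libraries, it was at least 599.5-fold higher under salt. It was also among the most even of the set under salt, with a coefficient of variation of 13.2%, 4.36% and 23.3% in the FKBP57 knockout, the FKBP73 knockout and wild type. Os01g0919100, also named after its values were seen, came next with 2 control counts in all, against 776 under salt. That is a ratio of 366, with an exact Poisson 95% interval of 101 to 3025 that covers counting error in the controls only.

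Over the 18 genes the salt counts summed over 9 libraries ran from 642 to 6032 with a median of 1880.5, and the control counts ran from 0 to 48 with a median of 15.5. The ratio of salt to control CPM over all libraries, with Os09g0433900 at its lower bound, had a median of 155 and ran from 17.9 for Os01g0754800 to 712. Within genotypes its median was 76.8 in the FKBP57 knockout, 121 in the FKBP73 knockout and 139.9 in wild type, with 5, 3 and 4 genes at lower bounds because their 3 control libraries had no count. Of the 162 control values, 80 were 0. Of the 82 others 65 were even numbers. In the whole table, 61.9% to 65.2% of counts from 1 to 20 in a library were even, against 51.8% to 53.7% of counts over 20, so a low count may not stand for that many independent fragments. Whether both reads of a fragment were counted was not tested, and floors and intervals here treat counts as independent.

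Near-silence in the controls was common, and from there a rise to 1 CPM in every salt library was rare. Of the 37863 genes, 11458 stayed at or below 0.3 CPM in all 9 control libraries. Of these 11458, 5401 had a count in a salt library, and 11328 were below 1 CPM in all 9 salt libraries. Of the other 130, 46 reached 1 CPM in a single salt library and 18 reached it in all 9. Only 5 reached it in 8 of 9, and FKBP57 knockout salt 3 was the missing library for 4 of these and wild-type salt 2 for the other one. With the limits exchanged, at most 0.3 CPM in all 9 salt libraries and at least 1 CPM in all 9 control libraries, 0 genes were found. That 0 follows from the FKBP57 knockout, where 0 genes met the exchanged limits. In the FKBP73 knockout alone 23 genes met them, and in wild type alone 25 did. The 0 and the 18 are therefore no measure of how many genes fell or rose.

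**Figure D2:**
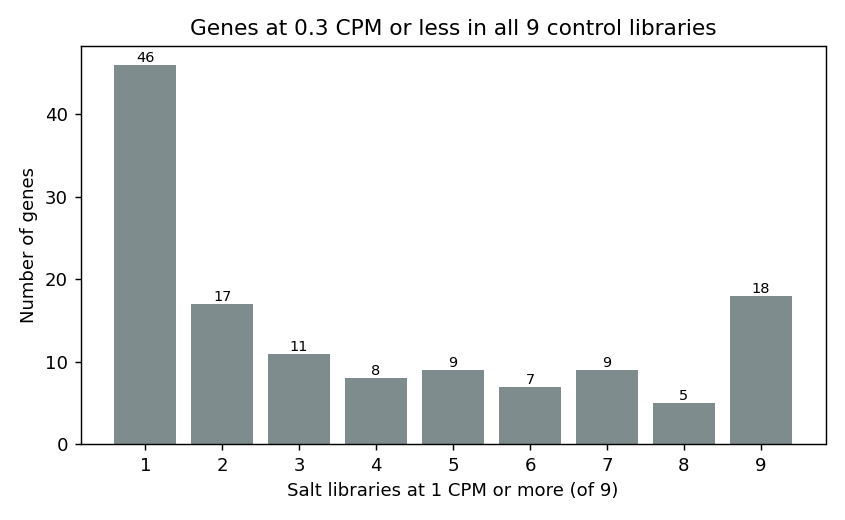
Number of genes (vertical axis) by the number of salt libraries in which they reached 1 CPM (horizontal axis), for genes at or below 0.3 CPM in all 9 control libraries. The counts fall to 5 genes at 8 libraries and stand at 18 genes at 9 libraries; the 11328 genes below 1 CPM in every salt library are not drawn.

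At the edges, the nearest genes lay as follows. Just inside the control limit lay Os02g0218700, at 0.283 CPM in wild-type control 2, and just outside it lay Os05g0206000, at 0.314 CPM in FKBP73 knockout control 1. Just inside the salt minimum lay Os06g0110200, at 1.02 CPM in FKBP57 knockout salt 3, and the next gene outside it was Os01g0276300, at 0.773 CPM in wild-type salt 2. Single libraries decided several entries. Without wild-type control 3, FKBP73 knockout control 1 or FKBP57 knockout salt 3 the count was 22 each time, and without the 3 libraries set apart on the principal components it was 28.

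Applied to each genotype alone, the same limits held for 50 genes in the FKBP57 knockout, 64 in the FKBP73 knockout and 71 in wild type, 118 genes in all. The 18 shared genes were 36% of the FKBP57 knockout set, 28.1% of the FKBP73 knockout set and 25.4% of the wild-type set. The FKBP57 knockout and wild type had 25 genes in common (50% and 35.2% of their sets), and the FKBP73 knockout and wild type had 33 (51.6% and 46.5%). In 16 genes the limits held in the FKBP57 knockout alone, in 22 in the FKBP73 knockout alone and in 31 in wild type alone.

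Failing a limit in another genotype seldom meant a response of the opposite sign. Of the 46 wild-type genes that missed in the FKBP57 knockout, 26 missed on the salt side only, 9 on the control side only and 11 on both, and 45 of the 46 had a higher mean under salt than under control there. Their median salt level was 1.08 CPM in the FKBP57 knockout and 2.51 CPM in wild type. Of the 25 FKBP57 knockout genes that missed in wild type, 15 missed on the control side only and 6 on the salt side only. All 25 had a higher mean under salt than under control in wild type. Their median salt level was 3.36 CPM in the FKBP57 knockout and 4.23 CPM in wild type. Both groups of genes were chosen for meeting the limits in one genotype and not in the other, so these medians are not a comparison of the genotypes. The set sizes moved with single libraries. The FKBP57 knockout set held 101 genes without its control 2 and 75 without its salt 3, and the wild-type set held 109 without its control 3 and 118 without its salt 2. These counts are not a test of a genotype difference.

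The contrast between genotypes within salt was tested. No difference between genotypes chose the genes, but the salt minimum applied to every salt library of each genotype. Genes below that minimum under salt in any genotype were thus left out beforehand. The test is therefore not independent of the choice, and its result holds only for genes that met the minimum in all genotypes. No gene of the 18 was called between genotypes under salt by edgeR's quasi-likelihood test. That was 0 of 18 in the FKBP57 knockout against wild type, where 0.304% of all genes were called, and 0 of 18 in the FKBP57 knockout against the FKBP73 knockout, where 0.25% were called. It was 0 of 18 in the FKBP73 knockout against wild type, where 0% were called. DESeq2 called 0 of the 18 in each of the 3 comparisons. Over all genes it called 370 in the FKBP57 knockout against wild type, 239 in the FKBP57 knockout against the FKBP73 knockout and 62 in the FKBP73 knockout against wild type. All 18 passed the filter on low counts, which they did through the salt libraries.

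In the FKBP57 knockout the 18 genes had a lower median under salt, with overlapping library medians, and none passed the test. The median log2 fold change against wild type was -0.74 over the 18, from -1.9 to 1.24, beside a median of 0.02 over all genes. The fitted value was negative for 12 genes and positive for 6, where 52.1% of all genes were positive. The 18 genes were read from the same libraries, so they are not replicates of a genotype. At an unadjusted p under 0.05 there were 4 genes lower, where 4.59% of all genes were, and 1 higher, where 5.38% of all genes were. The 3 knockout libraries lay wholly below the 3 wild-type libraries for 4 genes, where 10% of all genes did, and wholly above for 0, where 10.1% did. These 4, named because they are few, were Os12g0427600, Os02g0218700, Os05g0206100 and Os08g0108700. Leaving out wild-type salt 3 gave a median of -0.37, and leaving out FKBP57 knockout salt 3 gave -0.45. Under salt, the library median over the 18 genes was 5.5, 4.75 and 2.27 CPM in the FKBP57 knockout. In wild type it was 5.95, 2.66 and 8.69 CPM, so the groups overlapped. The pooled SD of this library median within salt groups was 0.66 on the log2 scale.

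**Figure D3:**
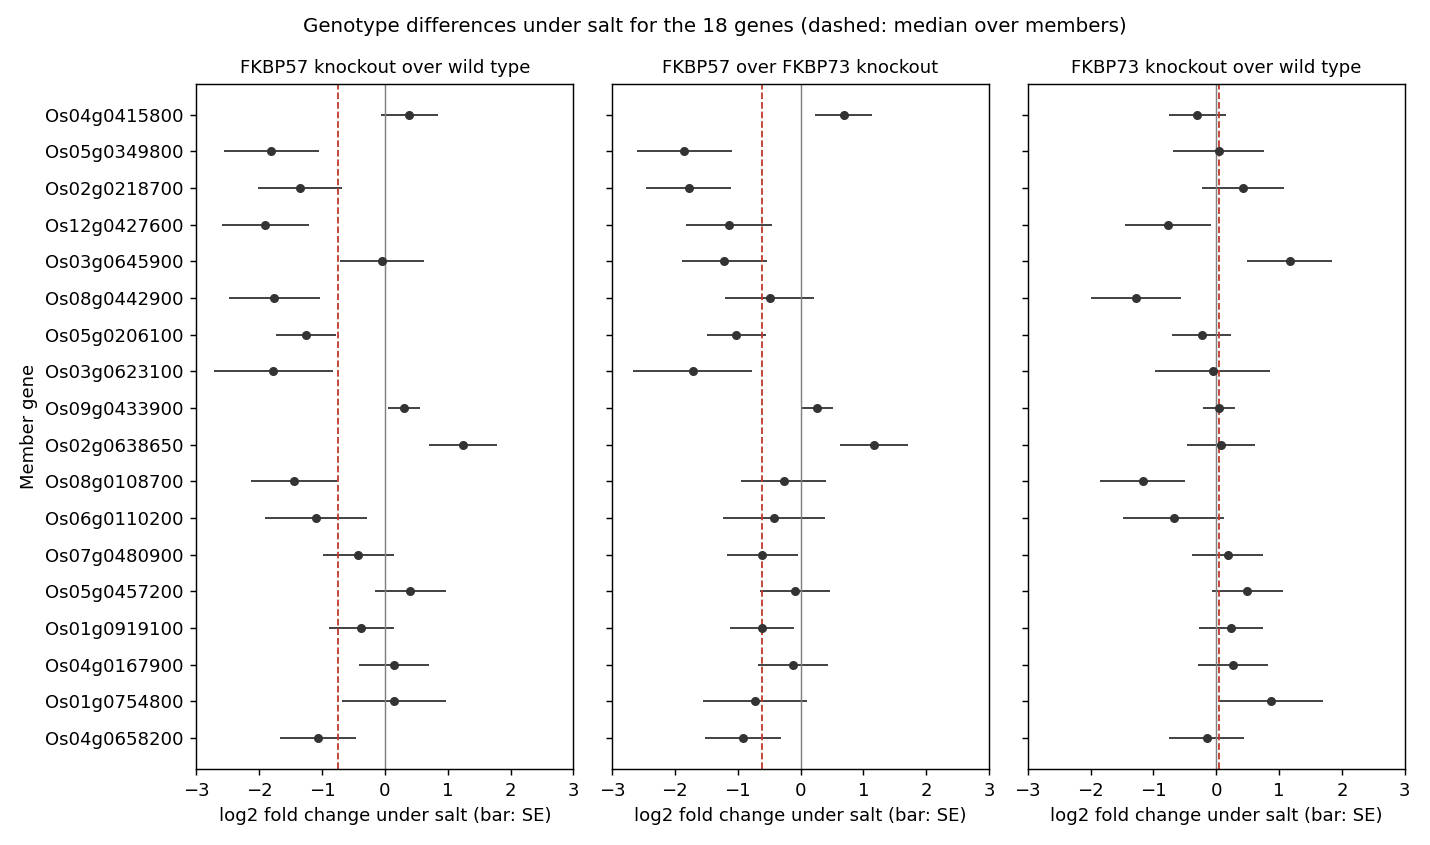
Fitted log2 fold change under salt (horizontal axis, bars are standard errors) of each of the 18 genes (vertical axis) for the 3 pairs of genotypes, with the median over the 18 genes as a dashed line. The medians stand at -0.74, -0.61 and 0.04, and no single gene passed the adjusted threshold.

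The largest negative value belonged to Os12g0427600. It had 6.58, 6.4 and 1.17 CPM under salt in the FKBP57 knockout against 14.7, 15 and 23.1 CPM in wild type. The groups did not overlap, but the log2 fold change of -1.9 (SE 0.7) had an edgeR adjusted p = 0.394. Os05g0349800 followed at -1.81 (SE 0.75, edgeR adjusted p = 0.456), with overlapping libraries, and at -1.02 without wild-type salt 3.

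Os02g0638650 ran the other way. It had 6.21, 11.3 and 12.3 CPM under salt in the FKBP57 knockout, 3.59, 3.35 and 6.47 CPM in the FKBP73 knockout and 4.82, 1.13 and 6.43 CPM in wild type. Its log2 fold change was 1.24 (SE 0.54, edgeR adjusted p = 0.472) against wild type and 1.16 (SE 0.54, edgeR adjusted p = 0.775) against the FKBP73 knockout. FKBP57 knockout salt 1, at 6.21 CPM, lay within the range of both other genotypes, and the value against wild type was 0.8 without wild-type salt 2. Os05g0457200, the next above wild type, had 2.8, 2.34 and 4.54 CPM in the FKBP57 knockout and 2.85, 1.71 and 2.52 CPM in wild type, which is 0.4 on the log2 scale (SE 0.56, edgeR adjusted p = 0.836).

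Between the knockouts, the FKBP57 line was lower than the FKBP73 line in fitted value for 15 of the 18 genes, with a median log2 fold change of -0.61 beside 0.01 over all genes. Of all genes, 51.4% had a positive value between the knockouts. Here too the 18 genes share their libraries and are not replicates. This comparison and the last share the FKBP57 knockout salt libraries. The libraries did not overlap for 5 genes, all lower in the FKBP57 knockout, where 10.2% of all genes lay wholly lower and 9.13% wholly higher. They were Os02g0218700, Os03g0645900, Os05g0206100, Os03g0623100 and Os04g0658200. At an unadjusted p under 0.05 there were 3 genes lower (2.76% of all genes) and 1 higher (3.65% of all genes). Without FKBP57 knockout salt 3 the median was -0.41.

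Os02g0218700 showed that gap with the libraries apart. It had 7.71, 6.62 and 3.31 CPM under salt in the FKBP57 knockout and 26.9, 21.7 and 14.1 CPM in the FKBP73 knockout, and wild type lay at 12.5, 12.6 and 19.5 CPM. The log2 fold change between the knockouts was -1.78 (SE 0.67, edgeR adjusted p = 0.623). Os05g0349800 had the lowest value, -1.85 (SE 0.76, edgeR adjusted p = 0.696), and Os04g0415800 was positive at 0.69 (SE 0.45, edgeR adjusted p = 0.882), with overlapping libraries.

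The FKBP73 knockout and wild type were centred together. The median log2 fold change was 0.04 over the 18 genes, from -1.28 to 1.17, beside -0.02 over all genes, with 10 positive and 8 negative. Of all genes, 47.1% were positive. The libraries lay wholly higher in the FKBP73 knockout for Os03g0645900 and Os05g0457200, 2 genes, where 15.4% of all genes did, and wholly lower for 1, Os08g0108700, where 7.03% did. At an unadjusted p under 0.05 there were 0 of the 18, where 5.12% of all genes were. The sign of this median is not settled: it was -0.32 without wild-type salt 2 and 0.45 without wild-type salt 3.

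Os03g0645900 had the highest value of that comparison. It had 14.7, 22.4 and 12 CPM under salt in the FKBP73 knockout and 10.4, 2.68 and 7.93 CPM in wild type, with no overlap and a fitted log2 difference of 1.17 (SE 0.68, edgeR adjusted p = 0.927). In the FKBP57 knockout it stood at 6.73, 6.98 and 6.88 CPM, the tightest set of replicates among the 18 genes in any genotype. Os01g0754800 was next at 0.87 (SE 0.83, edgeR adjusted p = 0.929), and at 0.3 without FKBP73 knockout salt 2.

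Os08g0442900 and Os08g0108700 had the lowest values. Os08g0442900 had 10.2, 8.26 and 3.08 CPM in the FKBP73 knockout and 13.3, 7.4 and 29.3 CPM in wild type, which overlap, with a fitted log2 difference of -1.28 (SE 0.71, edgeR adjusted p = 0.927) that was -0.6 without wild-type salt 3. Os08g0108700 had 5.74, 5.26 and 2.34 CPM in the FKBP73 knockout and 6.32, 12.6 and 9.46 CPM in wild type, without overlap, at -1.17 (SE 0.68, edgeR adjusted p = 0.927). The FKBP57 knockout was also wholly below wild type for Os08g0108700, at 4.79, 4.45 and 1.38 CPM.

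The difference of the salt response between each knockout and wild type was tested with the controls included, and 0 of 18 genes passed for either knockout, where 0% of all genes were called. As edgeR called no gene at all, this count says nothing particular about the 18. The limits had also used both the salt and the control values of these genes. DESeq2 called 0 of the 18 for either, with 26 calls over all genes for the FKBP57 knockout and 4 for the FKBP73 knockout. At an unadjusted p under 0.05 there were 3 of the 18 for the FKBP57 knockout (6.21% of all genes) and 0 for the FKBP73 knockout (2.99% of all genes). These fitted values rest on few control counts, for some genes from a single control library, and are no bound. For the FKBP57 knockout, Os08g0108700 had the lowest, -5.65 (SE 1.95, edgeR adjusted p = 0.774). It had 6 control counts in FKBP57 knockout control 2 and none in the other 8 controls, and the value was -1.43 without that library. Os12g0427600 followed at -3.12 (SE 1.47, edgeR adjusted p = 0.774). The highest was Os04g0415800 at 3.81 (SE 1.73, edgeR adjusted p = 0.774), where the FKBP57 knockout controls had no count, and the next, Os06g0110200 at 2.44 (SE 2.25, edgeR adjusted p = 0.817), turned to -1.11 without wild-type control 3.

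For the FKBP73 knockout the extremes were Os03g0623100 at -4.62 (SE 2.67, edgeR adjusted p = 0.993) and Os06g0110200 at -2.28 (SE 1.53, edgeR adjusted p = 0.993). The 8 control counts of Os03g0623100 all came from FKBP73 knockout control 3, and its value was -0.06 without that library. For Os06g0110200 it was -5.85 without wild-type control 3 and -1.33 without FKBP73 knockout control 3. The highest were Os08g0442900 at 2.18 (SE 2.02, edgeR adjusted p = 0.993) and Os03g0645900 at 1.84 (SE 1.47, edgeR adjusted p = 0.993), which turned to -0.35 without wild-type control 3.

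**Figure D4:**
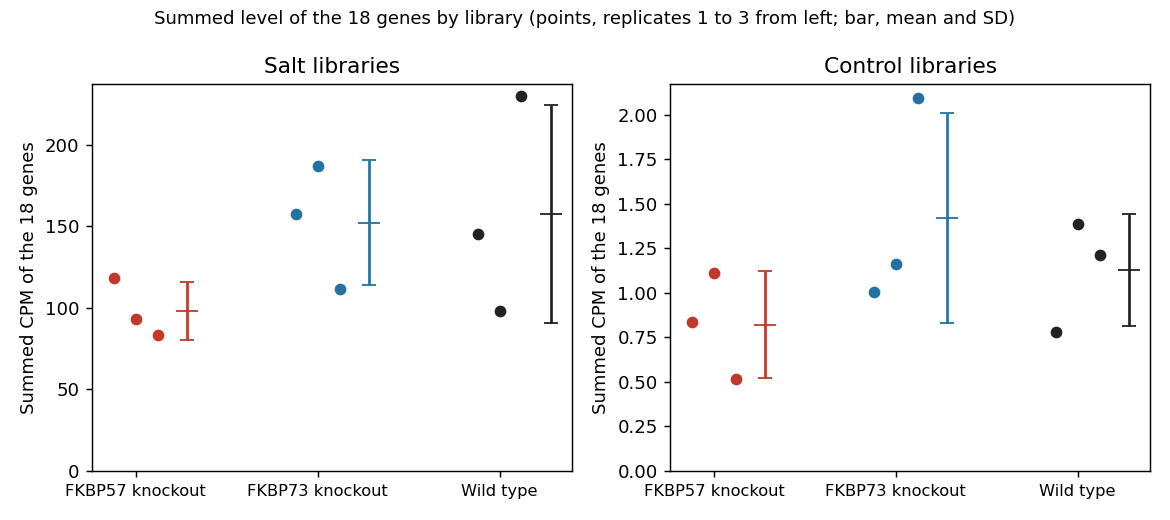
Summed CPM of the 18 genes in each library (points, replicates 1 to 3 from left) with mean and SD of the 3 replicates, for salt (left panel) and control (right panel, own axis). The wild-type salt libraries spread from 98.2 to 230 CPM and enclose the FKBP73 knockout libraries. FKBP57 knockout salt libraries lie between 83.5 and 118 CPM. They overlap both other genotypes, with wild-type salt 2 at 98.2 CPM and FKBP73 knockout salt 3 at 112 CPM.

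The replicates of a genotype differed in level, in wild type mostly the same way over the 18 genes. Within wild type, salt 3 was highest for 14 genes and salt 2 lowest for 13. Within the FKBP57 knockout, salt 1 was highest for 12 genes. Within the FKBP73 knockout, salt 1 and salt 2 were each highest for 7. Wild-type salt 3 held the highest of the 9 salt values for 7 genes and wild-type salt 2 the lowest for 8. The lowest wild-type salt library summed to 98.2 CPM over the 18 and the highest to 230 CPM. The ratio between the highest and the lowest wild-type salt library had a median of 2.54 over the genes and reached 13.9 for Os03g0623100, at 8.92, 1.57 and 21.8 CPM. In the FKBP57 knockout the median ratio was 2.06 and in the FKBP73 knockout 1.88.

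FKBP57 knockout salt 3 did not shift all of the genes one way. It held the lowest of the 9 salt values for 8 genes and the highest for 3, Os02g0638650, Os05g0457200 and Os04g0167900. In that library Os08g0442900 stood at 1.23 CPM, against 8.43 and 5.06 CPM in the other 2 libraries of the group, and Os05g0457200 at 4.54 CPM, against 2.8 and 2.34 CPM. Across the 9 salt libraries, which span 3 genotypes and in which every pair shares the same libraries, Pearson's r of log2 CPM between pairs of the 18 genes had a median of 0.39 over 153 pairs and was negative in 37. It was highest for Os02g0218700 with Os05g0206100 (0.94, n = 9 libraries) and lowest for Os08g0108700 with Os05g0457200 (-0.84, n = 9 libraries).

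The rows next to each gene in the identifier order were not used to choose it. Of these 36 neighbours 11 had no count in any library and 23 could be tested. Against control, 4 of the 23 were higher under salt in the FKBP57 knockout (4.64% of all genes were called higher), 5 in the FKBP73 knockout (8.88%) and 4 in wild type (13.6%), by edgeR at an adjusted p under 0.05. Called lower were 0, 1 and 2 of the 23, where 1.68%, 5.46% and 10.9% of all genes were. The neighbours Os05g0206000, Os04g0167875 and Os12g0428000 rose in all 3 genotypes, and they are named because the count is small.

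Os05g0206000, next to Os05g0206100, is the gene that missed the control limit by the least. It had 6.93, 4.48 and 1.93 CPM under salt in the FKBP57 knockout, 9.75, 11.9 and 5.77 CPM in the FKBP73 knockout and 7.39, 6.38 and 12.5 CPM in wild type. Among the controls it had 10 counts in FKBP73 knockout control 1, 4 in control 3 of that line and none elsewhere. Its ratio to Os05g0206100 stayed between 0.583 and 1.04 over the 9 salt libraries, and Pearson's r of log2 CPM was 0.95 (n = 9 libraries). Against control it was higher by a log2 fold change of 5.84 in the FKBP73 knockout (SE 0.83, edgeR adjusted p = 0.00104).

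Os04g0167875, next to Os04g0167900, was above 0.3 CPM in 2 controls, wild-type control 3 at 0.45 CPM and FKBP73 knockout control 3 at 0.446 CPM. Its salt levels were 4.24, 3.68 and 3.57 CPM in the FKBP57 knockout, 6.31, 6.56 and 5.9 CPM in the FKBP73 knockout and 5.78, 3.78 and 9.16 CPM in wild type. Here the pair moved together less closely, with Pearson's r of 0.39 (n = 9 libraries) and ratios from 0.976 to 3.51. No strand setting is given for the counting, and reads shared between adjacent, overlapping or near-identical genes could not be told apart, so both pairs are uncertain as separate genes.

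**Figure D5:**
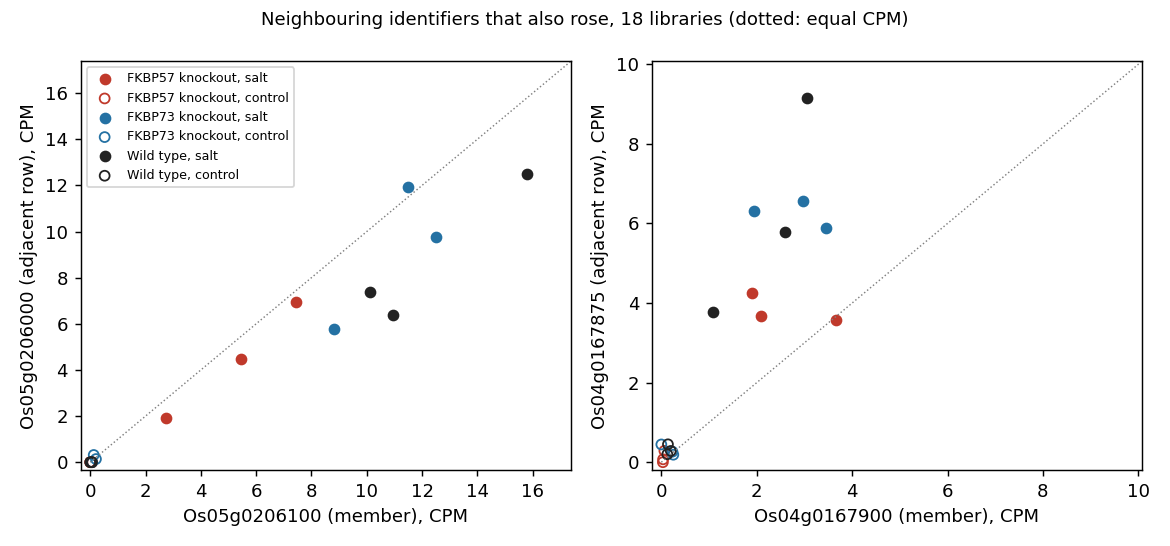
CPM of a neighbouring identifier (vertical axis) against that of the member beside it (horizontal axis) in all 18 libraries, filled for salt and open for control, with equal CPM as a dotted line. Os05g0206000 follows Os05g0206100 closely, and Os04g0167875 lies above Os04g0167900 in 8 of the 9 salt libraries.

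At 274 CPM in the controls, Os12g0428000 was far from silent before salt, and it averaged 1227 CPM over the 9 salt libraries. Against control its log2 fold change was 1.68 in the FKBP57 knockout (SE 0.4, edgeR adjusted p = 0.0209), 2 in the FKBP73 knockout (SE 0.41, edgeR adjusted p = 0.0044) and 2.65 in wild type (SE 0.42, edgeR adjusted p = 0.000581). The member beside it, Os12g0427600, averaged 4.72 CPM under salt in the FKBP57 knockout, 10.9 CPM in the FKBP73 knockout and 17.6 CPM in wild type.

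Of 34 identifiers of salt and abscisic acid genes, in 5 lists written down from prior knowledge, 33 exceeded 0.3 CPM in at least 1 control library, and 1 met both limits. Of all 37863 genes, 26405 exceeded 0.3 CPM in at least 1 control library, and the lists were not tested against that share. All 9 identifiers of the list of LEA proteins and dehydrins, which protect drying cells, exceeded it, as did all 7 of the list of clade A phosphatases, which restrain abscisic acid signalling. The same held for all 8 of the stress transcription factors and all 7 of the sodium transport and SOS list. Of the 3 identifiers listed for the enzymes that cleave carotenoids towards abscisic acid, 2 exceeded it and Os03g0645900 was the one that met both limits. Its place in that list rests on prior knowledge and was not checked in a table used here.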

How the data were processed

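Leaf mRNA of 18 rice libraries was selected with poly-T beads and sequenced on an Illumina NovaSeq, per the labels' protocols. The deposited values are whole-number read counts per gene. HTSeq 0.9.1, fastp 0.22.0 and the build IRGSP-1.0 are listed in the submitters' processing notes, whereas the aligner, annotation release and strand setting are not given. CPM was computed on plain library totals. The test was run in R 4.3.3 with edgeR 4.0.16: filterByExpr (minimum count 10, minimum total 15) kept 25957 genes, TMM factors ran from 0.779 to 1.11, and 1 quasi-likelihood model had 6 group means and 12 residual degrees of freedom. Benjamini-Hochberg adjustment ran over all tested genes, with a threshold of 0.05. Standard errors were derived from the F statistics. Without TMM factors the median of all genes would shift by 0.12 in the salt contrast of the FKBP57 knockout, by 0.16 in the difference of its response from wild type, and by at most 0.06 between genotypes under salt. DESeq2 1.42.0 was an alternative.

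Where identifiers have no names, the rule for printed genes took, per contrast, the 2 highest and 2 lowest members, the 2 with the highest mean salt CPM, and 1 gene on each side of each limit. Neighbours of members and genes marked in the text were added after their values were seen. The members and lists were chosen with earlier results of these data known. The 18 within-group pairs of libraries differed by more than sampling noise (chi-square per degree of freedom of at least 23.7). The targeted genes could not be matched to identifiers and were not analysed here. Promoter motifs were not analysed here.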

Additional observations from a re-analysis of the deposited data

How the results depend on the processing

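No gene of the 18 was called in any of the 5 tested contrasts under any of the 26 alternatives, which were RLE scaling, no filter, a mean of at least 5 CPM (5 of the 18 tested), only the groups compared, the replicate block, DESeq2, each library left out, and the fits without 3 or 4 libraries that were picked after seeing the data. The same replicate numbers deviated together in 1 of 9 pairs of salt libraries at a correlation over 0.1 (-0.29 to 0.11). The numbers thus showed no clear pairing among salt libraries of different genotypes, and pairing that involves control libraries was not checked. In the FKBP57 knockout against wild type under salt, calls over all genes ran from 32 (mean of at least 5 CPM) to 370 (DESeq2). In the FKBP73 knockout against wild type under salt they were 0 in the main fit and 148 with only the groups compared. With so few calls over all genes, 0 of 18 says little about the 18 in particular. Under the replicate block 0 of the 18 genes were called, while 67 of all genes were called in the FKBP57 knockout against wild type under salt. With that block, the median of the FKBP57 knockout against wild type was -0.63. Leaving out each library in turn, that median ran from -0.98 to -0.37, the median between the knockouts from -0.89 to -0.41, and that of the FKBP73 knockout against wild type from -0.32 to 0.45. With a mean of at least 5 CPM, which kept 5 of the 18 genes, the FKBP57 knockout medians were -1.35 against wild type and -1.21 against the FKBP73 knockout.

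The number of genes moved with the limits. It was 7 at a control limit of 0.2 CPM, 33 at 0.5 CPM 27 at a salt minimum of 0.5 CPM and 6 at 2 CPM, and 18 to 22 without each library in turn. It was 50, 64 and 71 within the FKBP57 knockout, the FKBP73 knockout and wild type alone. It was 28 without the 3 libraries set apart and 30 without FKBP57 knockout control 2 as well. On TMM-scaled totals 17 of the 18 remained and 1 other gene entered.

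Of the named differences of the salt response, 2 changed sign. Os06g0110200 in the FKBP57 knockout was at -1.11 without wild-type control 3, and at -0.69 without the 3 libraries or without 4. Os03g0645900 in the FKBP73 knockout was at -0.35, -0.34 and -0.36 under the same alternatives. Leaving out each library in turn, they ran from -1.11 to 3.22 and from -0.35 to 2.44. Wild-type control 3 held all 4 wild-type control counts of Os06g0110200 and 6 of the 7 of Os03g0645900. The cause of the sign changes was not tested. Medians of these differences are not given, since several genes had no control count in a group.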

Other observations

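FKBP73 knockout control 3 held the most residual signal of the 18 genes among the controls, with 61 counts and 6 genes at 0. The other 8 control libraries held 16 to 49 counts and had 7 to 13 genes at 0. FKBP57 knockout control 3, which stood apart on the first principal component, held the fewest, 16 counts with 13 genes at 0.

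The limits exchanged between conditions gave 0 genes in the FKBP57 knockout alone, 23 in the FKBP73 knockout alone and 25 in wild type alone. Without wild-type control 3 the wild-type number was 271, and without FKBP57 knockout salt 3 the FKBP57 knockout number was 5. In the stated direction the same exclusions gave 109 and 75 genes.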
